A study of Mus musculus with 9 samples.

Results

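Pancreatic progenitors and islet cells are specified by a small set of transcription factors, and 9 of them were followed here: Pdx1, Nkx6-1, Sox9, Onecut1, Onecut2, Mnx1, Hhex, Pax6 and Isl1. They were chosen by name as factors of multipotent, trunk and islet cells. They are 9 of 55453 gene symbols counted, and all 9 were among the 19166 genes with enough reads to be tested. Sox9 carries an HMG box, while the other 8 are homeodomain proteins. RNA came from whole mouse pancreas at e18.5, shortly before birth, on a mixed C57BL6 background, with 3 embryos per genotype. The groups were Pdx1:Cre;Grg3Grg4, Pdx1:Cre;Grg3 and Pdx1:Cre, which served as the control. All 3 groups carried the Pdx1:Cre transgene, in which the Pdx1 promoter directs Cre recombinase to the pancreatic epithelium, so the control also carried Cre. The labels do not say how the Grg3 and Grg4 alleles were built. Cells outside the Pdx1 lineage, such as mesenchyme, vessels and nerves, were part of every sample.

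Grg3 and Grg4 are the Groucho proteins encoded in the mouse by Tle3 and Tle4. Groucho proteins do not bind DNA. They are recruited by transcription factors, Nkx6-1 and Hhex among them, and they repress the genes at which they are held. Pdx1 and Sox9 are made throughout the early pancreatic epithelium. Sox9, Onecut1 and Hhex remain in trunk and duct cells, while Pdx1, Nkx6-1 and Mnx1 become beta cell factors and Pax6 and Isl1 are made in all islet hormone cells.

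Promoter windows of 4 of the factors are shown because these genes stand at the centre of the comparisons below: Pdx1 is the factor whose RNA fell, Onecut1 was lower in every mutant-labelled library, and Nkx6-1 and Isl1 were higher in the libraries labelled Grg3. RefSeq windows on build GRCm38.p6 run from 250 bases before to 50 bases after an annotated start, and 7 of the 9 factors matched the table by symbol. Capitals mark matches, on either strand, to the E-box CACGTG, to the CCAAT box, to the homeodomain core TAATTA and to a forkhead motif, which was TGTTTAC, its variant TGTTTGC or its variant TATTTAC. No searched motif contains another. The windows lie at chr5:147269847-147270146 on the plus strand for Pdx1, chr9:74861671-74861970 on the plus strand for Onecut1, chr5:101664662-101664961 on the minus strand for Nkx6-1 and chr13:116309639-116309938 on the minus strand for Isl1. The GENCODE annotation, used for gene coordinates, starts Pdx1 and Nkx6-1 at other bases than RefSeq. The Pdx1 window holds the GENCODE start, 147269959. The Nkx6-1 window lies wholly inside the GENCODE gene, which starts at 101664996.
Pdx1: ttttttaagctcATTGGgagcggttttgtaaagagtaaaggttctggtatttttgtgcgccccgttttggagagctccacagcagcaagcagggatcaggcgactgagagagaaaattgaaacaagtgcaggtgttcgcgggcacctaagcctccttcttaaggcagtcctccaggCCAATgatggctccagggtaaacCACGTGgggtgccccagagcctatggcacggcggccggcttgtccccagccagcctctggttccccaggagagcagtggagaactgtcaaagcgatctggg
Onecut1: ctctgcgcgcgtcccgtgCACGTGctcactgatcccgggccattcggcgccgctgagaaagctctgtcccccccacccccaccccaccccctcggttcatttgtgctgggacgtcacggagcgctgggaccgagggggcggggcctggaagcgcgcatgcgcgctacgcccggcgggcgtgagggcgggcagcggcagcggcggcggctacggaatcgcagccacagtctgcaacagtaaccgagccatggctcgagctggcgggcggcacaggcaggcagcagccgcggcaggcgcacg
Nkx6-1: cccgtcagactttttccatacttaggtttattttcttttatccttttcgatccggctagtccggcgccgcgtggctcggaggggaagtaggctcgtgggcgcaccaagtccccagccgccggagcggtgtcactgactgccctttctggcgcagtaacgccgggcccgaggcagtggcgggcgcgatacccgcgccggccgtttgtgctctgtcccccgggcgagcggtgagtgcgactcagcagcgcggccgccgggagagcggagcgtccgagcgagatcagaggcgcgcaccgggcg
Isl1: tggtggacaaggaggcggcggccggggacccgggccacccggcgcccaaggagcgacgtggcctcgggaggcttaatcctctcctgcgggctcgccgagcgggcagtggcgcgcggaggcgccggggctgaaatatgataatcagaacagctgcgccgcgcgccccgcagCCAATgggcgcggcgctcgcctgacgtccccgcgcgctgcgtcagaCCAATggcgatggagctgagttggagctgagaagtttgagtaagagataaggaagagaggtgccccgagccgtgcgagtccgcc

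The E-box CACGTG was found in the windows of Pdx1 and Onecut1, which are 2 of the 7 factors, and in 7.15% of the 32851 windows in the table. In Pdx1 it begins at position -51 relative to the RefSeq start, and in Onecut1 at -232. By the GENCODE start, the Pdx1 match lies inside the gene rather than before it. CCAAT was found for 5 factors (Pdx1, Isl1, Mnx1, Hhex and Pax6) and in 37.4% of all windows. TAATTA (5.29% of all windows), TGTTTAC (3.65%), TGTTTGC (5.07%) and TATTTAC (3.04%) matched none of the 7 factors' windows. GC content was 55.3% for Pdx1, 73.0% for Onecut1, 67.3% for Nkx6-1 and 69.0% for Isl1, against a median of 52.7% over all windows. These matches are descriptions of the letters and say nothing of binding.

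Reads assigned to genes came to between 46817453 and 62744499 per library. The gene targeted in both mutant genotypes went against its label. Tle3, which encodes Grg3, averaged 134.6 ± 10.4 CPM (read counts per 1e6 reads assigned to genes, scaled by the trimmed mean of M values, TMM) in libraries labelled Grg3Grg4 and 153.2 ± 12.1 CPM in those labelled Grg3, against 64.8 ± 2.50 CPM in controls (SD, n = 3 each), with edgeR adjusted p = 0.000558 and 0.00027. Tle4 averaged 11.6 ± 3.52 CPM in libraries labelled Grg3Grg4, 12.2 ± 2.10 CPM in those labelled Grg3 and 7.77 ± 0.085 CPM in controls, and did not pass the test (edgeR adjusted p = 0.155 and 0.132). Counts cover a whole gene, so an allele that has lost some exons, an allele that raises expression and exchanged labels cannot be told apart from these values. Foxa1, named for context, also separated the labelled groups. It averaged 12.4 ± 1.02 CPM in libraries labelled Grg3Grg4 and 12.8 ± 2.02 CPM in those labelled Grg3 (SD, n = 3 each). Controls had 0.028 ± 0.012 CPM, with edgeR adjusted p = 1.29e-07 and 1.73e-07. Why the controls had almost no Foxa1 RNA was not tested. All directions below are those of the labelled groups and would change meaning if the labels were wrong. Library Grg3Grg4 replicate 2 stands apart from the other 8. Its summed level of 10 kidney genes was 645.2 CPM, against 72.5 to 80.5 CPM in the other libraries labelled Grg3Grg4, 41.4 to 67.1 CPM in those labelled Grg3 and 67.6 to 75.0 CPM in controls. Its summed level of 10 skeletal muscle genes was 2925 CPM, against at most 90.1 CPM in any other library. Both of these lists were chosen after values were seen. By Xist and Ddx3y, all 3 libraries labelled Grg3Grg4 came from males, as did 1 labelled Grg3 and 1 control, while the other 4 libraries came from females. Genotype and sex are therefore partly confounded.

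Of the 9 factors, 1 changed between libraries labelled Grg3Grg4 and controls, and it was Pdx1, which fell (edgeR quasi-likelihood test, Benjamini-Hochberg adjusted p under 0.05 over all genes tested). Across all genes, 2.14% were called in this comparison, and 0.897% were called lower. Between libraries labelled Grg3 and controls 0 of 9 factors passed, with 1.4% of all genes called. There 2 factors had an unadjusted p under 0.05, as did 3661 of all 19166 genes tested. DESeq2 called 1 factor (Nkx6-1) among 1323 genes in all, and limma voom called 0 factors. Between libraries labelled Grg3Grg4 and those labelled Grg3 0 of 9 passed, with 0.188% of all genes called. In that comparison 4 factors had an unadjusted p under 0.05, as did 3319 of all genes. DESeq2 called 2 factors (Nkx6-1 and Mnx1) among 877 genes in all, and limma voom called 0 factors. For Grg3Grg4 against control, 3866 of all genes had an unadjusted p under 0.05, and DESeq2 called 1471. These counts over all genes are also the background for the unadjusted and DESeq2 counts of the gene lists below.

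**Figure D1:**
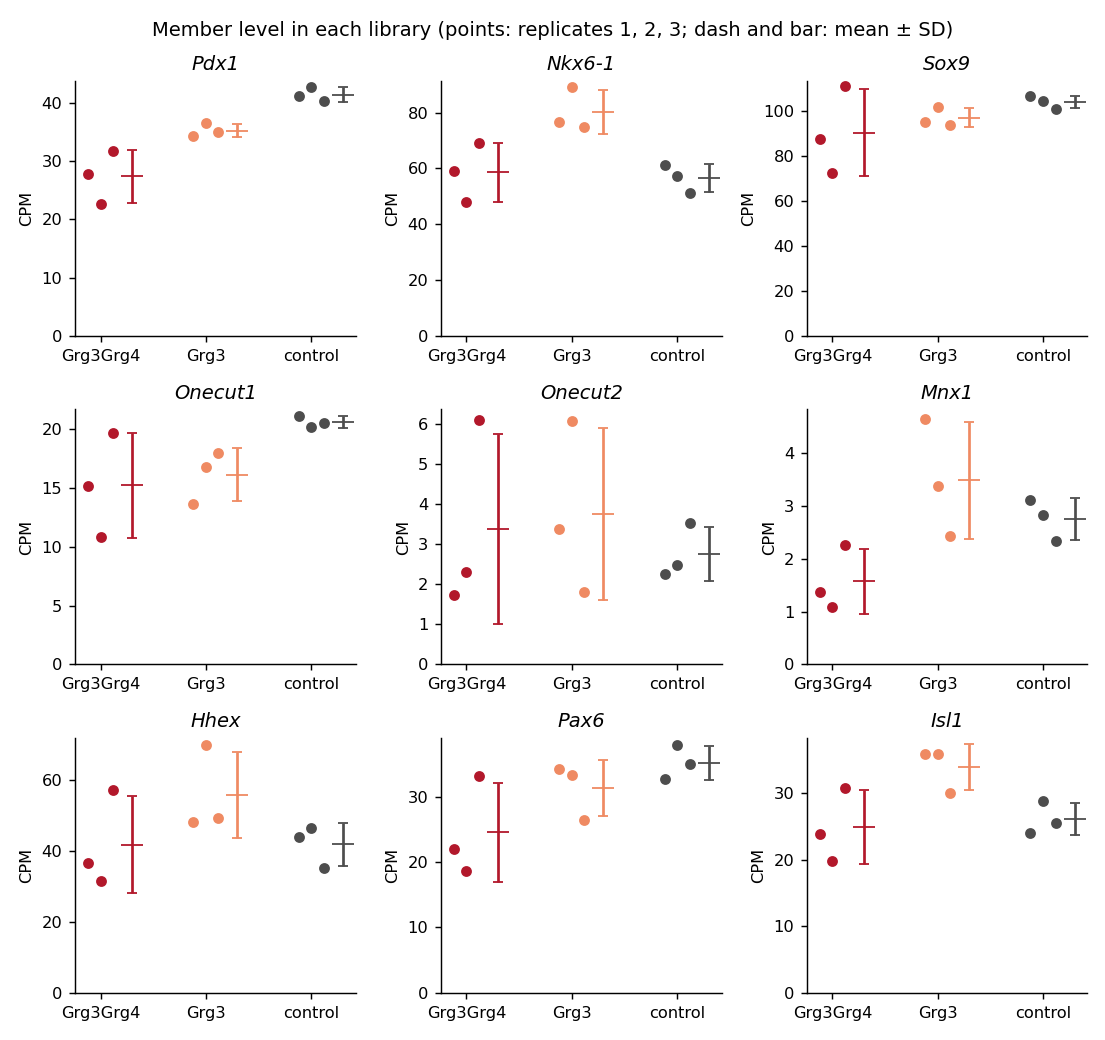
TMM-scaled CPM (y axis, from 0) of each factor in all 9 libraries, with libraries labelled Grg3Grg4 at left, Grg3 in the middle and control at right. Points are replicates 1, 2 and 3, and the dash and bar are the mean ± SD of 3 libraries; Pdx1 is lowest in the libraries labelled Grg3Grg4, and replicate 2 is the lowest of its group for 8 of the 9 factors.

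Pdx1 is the homeodomain factor required for the pancreas to form at all, and later maintains insulin transcription and beta cell identity. Its gene lies on chromosome 5 at 147269959 to 147275848, plus strand (GRCm38). Pdx1 had 27.7, 22.7 and 31.8 CPM in libraries labelled Grg3Grg4, then 34.3, 36.5 and 34.9 CPM in those labelled Grg3, against 41.2, 42.7 and 40.3 CPM in controls. The groups formed an order with no overlap: every library labelled Grg3Grg4 lay below every one labelled Grg3, and every control lay above both. The share of all genes with such an order was not computed. The means were 27.4 ± 4.56, 35.2 ± 1.12 and 41.4 ± 1.25 CPM for Grg3Grg4, Grg3 and control (SD, n = 3 each). The log2 fold change was -0.60 (SE 0.11) in Grg3Grg4-labelled libraries against control, with edgeR adjusted p = 0.0306. In libraries labelled Grg3 it was -0.23 (SE 0.11) against the same controls, with edgeR adjusted p = 0.285, and it did not pass. The difference between libraries labelled Grg3Grg4 and Grg3 was -0.36 (SE 0.11), with edgeR adjusted p = 0.155.

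The call on Pdx1 was close to the threshold. Without Grg3Grg4 replicate 2 its log2 fold change was -0.48 with edgeR adjusted p = 0.0523, and the call was also lost without Grg3Grg4 replicate 1 (0.0756) or without control replicate 1, 2 or 3 (0.0903, 0.152 and 0.105). With sex as a term it was -0.57, with edgeR adjusted p = 0.162. Within males, Pdx1 ranged from 22.7 to 31.8 CPM in the 3 libraries labelled Grg3Grg4, against 41.2 CPM in the 1 control. An antisense transcript, Plut, starts within the span of Pdx1 with exons that do not overlap those of Pdx1, and is named here for its position. Plut averaged 4.05 ± 0.89 CPM in libraries labelled Grg3Grg4, 4.46 ± 0.75 CPM in those labelled Grg3 and 3.98 ± 0.19 CPM in controls (SD, n = 3 each), and did not pass the test (edgeR adjusted p = 0.962 and 0.702). In RNA from a whole organ, fewer cells of a type and less RNA per cell cannot be told apart, here and in the results below.

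Among the trunk and duct factors, Sox9, which sustains the progenitor pool and marks duct cells, overlapped between all 3 groups. It had 87.2, 72.5 and 111.1 CPM in libraries labelled Grg3Grg4, 95.1, 101.8 and 93.8 CPM in those labelled Grg3, and 106.4, 104.2 and 100.7 CPM in controls. Its log2 fold changes were -0.20 (SE 0.13) and -0.10 (SE 0.13) against control, with edgeR adjusted p = 0.43 and 0.728. The first was -0.067 without Grg3Grg4 replicate 2 and -0.38 without replicate 3, and passed in neither (edgeR adjusted p = 0.836 and 0.101). The spread within the Grg3Grg4-labelled group, 19.5 CPM, was larger than the difference between the group means.

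Onecut1 (Hnf6) acts upstream of Pdx1 and of the endocrine initiator Neurog3 and shapes the ducts. It had 15.2, 10.8 and 19.7 CPM in libraries labelled Grg3Grg4 and 13.6, 16.8 and 17.95 CPM in those labelled Grg3, against 21.1, 20.1 and 20.5 CPM in controls. All 6 mutant-labelled libraries lay below the lowest control. The differences did not pass the test: log2 -0.44 (SE 0.19, edgeR adjusted p = 0.236) and -0.35 (SE 0.19, edgeR adjusted p = 0.346). The first was -0.24 without Grg3Grg4 replicate 2 and -0.67 without replicate 3. A long noncoding RNA, Gm20649, shares exons with Onecut1 on the same strand and had 0 counts in all libraries, so reads there could have been set aside as ambiguous.

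Onecut2, the paralogue that partly overlaps with Onecut1 in function, had the lowest level per kilobase of exon of the 9, as given below. It had 1.73, 2.32 and 6.12 CPM in libraries labelled Grg3Grg4, 3.40, 6.08 and 1.80 CPM in those labelled Grg3, and 2.25, 2.49 and 3.54 CPM in controls. A library of each mutant-labelled group stood above 6 CPM and the others overlapped with control. Its standard error of 0.52 on the log2 scale in both comparisons against control was the largest of the 9 factors, beside log2 fold changes of 0.29 and 0.45, so a change of that size was not detectable. Without its highest library in each group, the fold changes were -0.45 (without Grg3Grg4 replicate 3) and -0.085 (without Grg3 replicate 2).

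Hhex, needed for the ventral pancreas to bud and later made in ducts and delta cells, had 36.6, 31.5 and 57.1 CPM in libraries labelled Grg3Grg4, against 43.8, 46.4 and 35.1 CPM in controls. These groups overlapped and had nearly equal means, 41.75 ± 13.5 and 41.76 ± 5.94 CPM (SD, n = 3 each). In libraries labelled Grg3, Hhex had 48.0, 69.7 and 49.3 CPM, all above the highest control. That difference, log2 0.42 (SE 0.22), did not pass the test (edgeR adjusted p = 0.34), and it was 0.22 without Grg3 replicate 2, the highest library.

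Among the islet factors, Nkx6-1 is needed to form and maintain beta cells and binds Groucho proteins through its eh1 motif. It had 59.0, 47.9 and 69.1 CPM in libraries labelled Grg3Grg4 and 76.7, 89.2 and 74.8 CPM in those labelled Grg3, against 61.1, 57.3 and 51.1 CPM in controls. Every library labelled Grg3 lay above all 6 others, while libraries labelled Grg3Grg4 overlapped with control. The log2 fold change in libraries labelled Grg3 against control was 0.51 (SE 0.13), with edgeR adjusted p = 0.0904, the lowest among the 9 factors in that comparison. Nkx6-1 passed in this comparison, with the same fold change and edgeR adjusted p = 0.0477, once Grg3Grg4 replicate 2 was left out of the shared fit. In libraries labelled Grg3Grg4 the log2 fold change was 0.05 (SE 0.13) against control and -0.45 (SE 0.13) against Grg3, with edgeR adjusted p = 0.858 and 0.143.

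Isl1, a LIM homeodomain factor of all islet hormone cells and of the dorsal mesenchyme, also had its highest mean in libraries labelled Grg3. It had 23.9, 19.9 and 30.9 CPM in libraries labelled Grg3Grg4 and 35.9, 36.0 and 30.0 CPM in those labelled Grg3, against 24.1, 28.8 and 25.6 CPM in controls. Libraries labelled Grg3 lay above all controls, with log2 0.38 (SE 0.15) and edgeR adjusted p = 0.219. Libraries labelled Grg3Grg4 overlapped with control, with log2 -0.07 (SE 0.15) and edgeR adjusted p = 0.829.

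Mnx1, a beta cell factor also needed to form the dorsal pancreas, had 1.37, 1.09 and 2.26 CPM in libraries labelled Grg3Grg4 and 4.64, 3.38 and 2.43 CPM in those labelled Grg3, against 3.11, 2.83 and 2.33 CPM in controls. Libraries labelled Grg3Grg4 lay below all 6 others, by a small margin for replicate 3. The log2 fold changes of libraries labelled Grg3Grg4 were -0.81 (SE 0.32) against control and -1.15 (SE 0.32) against Grg3, with edgeR adjusted p = 0.197 and 0.133. The fold change against control was -0.60, with edgeR adjusted p = 0.427, when Grg3Grg4 replicate 2 was left out.

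Pax6, a paired homeodomain factor that drives hormone gene transcription in all islet cell types, had 21.95, 18.6 and 33.1 CPM in libraries labelled Grg3Grg4 and 34.2, 33.3 and 26.4 CPM in those labelled Grg3, against 32.7, 37.9 and 34.9 CPM in controls. In each mutant-labelled group some libraries lay below all controls and others within their range. The log2 fold changes against control were -0.52 (SE 0.19) and -0.17 (SE 0.19), with edgeR adjusted p = 0.167 and 0.673. Without Grg3Grg4 replicate 3, the highest of its group, Pax6 passed at log2 -0.80 with edgeR adjusted p = 0.0321, and without replicate 2 it was -0.36.

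**Figure D2:**
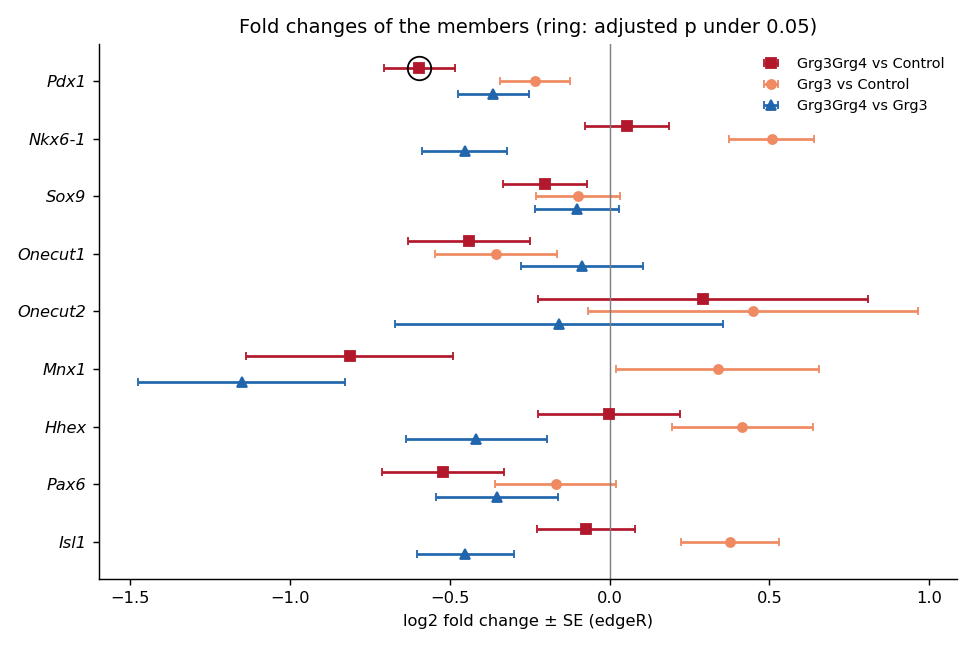
Log2 fold change of each factor (x axis) in the 3 comparisons, with bars of ± 1 SE from the edgeR fit and a ring where the adjusted p was under 0.05. Pdx1 in libraries labelled Grg3Grg4 against control, at -0.60, carries the ring, and all 9 triangles (Grg3Grg4 against Grg3) lie left of 0. Those of Sox9, Onecut1 and Onecut2 did not stay left of 0 when each library was left out in turn.

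As a set, 7 of 9 factors had a negative fold change in libraries labelled Grg3Grg4 against control, with a median of -0.20 on the log2 scale, beside 0.012 over all genes tested. Against the same 3 controls, in libraries labelled Grg3, 5 were positive and 4 negative, with a median of 0.34 beside 0.019 over all genes. In libraries labelled Grg3Grg4 against Grg3, 9 of 9 were negative, with a median of -0.36 beside -0.0027 over all genes. When each library was left out in turn, Sox9, Onecut1 and Onecut2 reached up to 0.033, 0.11 and 0.38 in that comparison. The remaining factors stayed negative. The CPM of 3 factors (Pdx1, Onecut1 and Mnx1) did not overlap between Grg3Grg4-labelled libraries and controls, where 29.1% of all genes did not overlap; all 3 were lower, as were 14.2% of all genes. Between Grg3-labelled libraries and controls 5 factors did not overlap, where 24.6% of all genes did not: Nkx6-1, Hhex and Isl1 were higher (12.6% of all genes), and Pdx1 and Onecut1 were lower (12%). Between the mutant-labelled groups 3 did not overlap (Pdx1, Nkx6-1 and Mnx1, all lower in Grg3Grg4), where 21.1% of all genes did not and 9.3% were lower. Shares of all genes were not computed for patterns over all 3 groups at once, such as those of Pdx1, Onecut1, Nkx6-1 and Mnx1 above. Library Grg3Grg4 replicate 2, with its kidney and muscle RNA, was the lowest of all 9 libraries for 8 of 9 factors, and replicate 3 was the highest of its group for 9 of 9. Without replicate 2 the log2 fold changes of libraries labelled Grg3Grg4 against control were -0.48 for Pdx1, -0.067 for Sox9, -0.24 for Onecut1, 0.50 for Onecut2, 0.17 for Hhex, 0.18 for Nkx6-1, 0.065 for Isl1, -0.60 for Mnx1 and -0.36 for Pax6. Without replicate 3 they were -0.72 for Pdx1, -0.38 for Sox9, -0.67 for Onecut1, -0.45 for Onecut2, -0.29 for Hhex, -0.080 for Nkx6-1, -0.26 for Isl1, -1.17 for Mnx1 and -0.80 for Pax6. The sign of Onecut2, Hhex, Nkx6-1 and Isl1 therefore depended on which of these libraries was left out, while Pdx1, Sox9, Onecut1, Mnx1 and Pax6 were negative in both.

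The sign of several fold changes depends on scaling. With plain totals of gene counts in place of TMM factors, the median fold change of all genes moved by 0.247 on the log2 scale for libraries labelled Grg3Grg4 and by 0.199 for those labelled Grg3, and 93.5% of calls in the first comparison were then higher. Pdx1 was then -0.35 with edgeR adjusted p = 0.105. Sox9 (0.039), Hhex (0.24) and Isl1 (0.17) turned positive in libraries labelled Grg3Grg4 against control, as did Sox9 (0.10) and Pax6 (0.044) in those labelled Grg3, and each of these 5 values was below the shift of the median. Pancreatic enzyme RNA took a large and differing share of each library: the summed level of 38 acinar genes was 272000 to 311800 CPM in libraries labelled Grg3Grg4 and 222600 to 424200 CPM in those labelled Grg3, against 415600 to 480300 CPM in controls.

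Levels of different factors can be compared once divided by annotated exon length. In CPM per kilobase, controls ran in the order Sox9 (25.1), Pdx1 (19.2), Nkx6-1 (18.0), Hhex (8.26), Isl1 (6.61), Onecut1 (5.01), Pax6 (3.01), Mnx1 (1.23) and Onecut2 (0.170). Neighbours whose libraries overlapped there were Pdx1 with Nkx6-1 and Hhex with Isl1. In libraries labelled Grg3Grg4, Sox9 (21.8) and Nkx6-1 (18.7) overlapped at the top, and Pdx1 (12.7) came next and overlapped with Hhex (8.26). In libraries labelled Grg3, Nkx6-1 came first at 25.6 CPM per kilobase and overlapped with Sox9 at 23.4, ahead of Pdx1 at 16.3. The place of the lower-level factors, from Hhex down to Onecut2, was the same in the 3 groups.

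**Figure D3:**
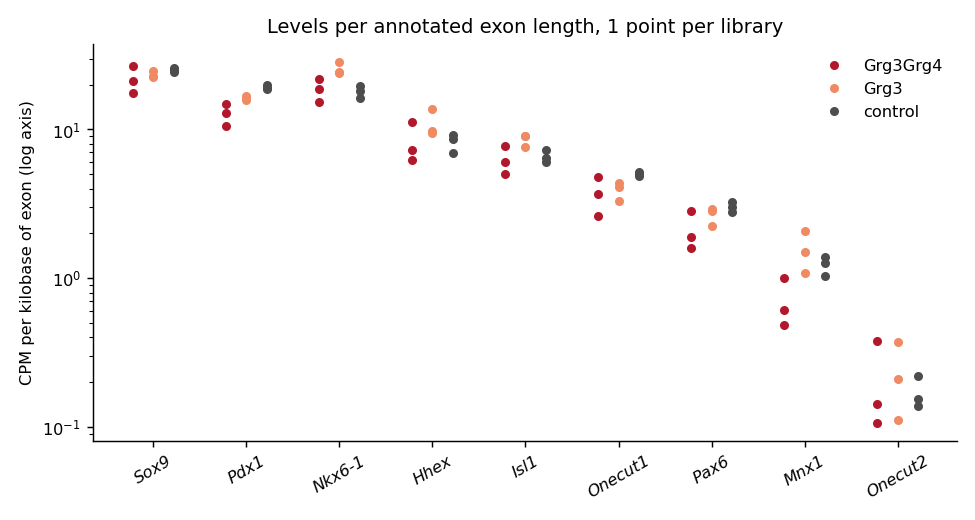
Level of each factor as CPM per kilobase of annotated exon (y axis, log scale), 1 point per library, with libraries labelled Grg3Grg4 left of Grg3 and of control. Factors are ordered by their control mean, from Sox9 at 25.1 to Onecut2 at 0.170, and Nkx6-1 lies above Pdx1 in both mutant-labelled groups.

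The islet factors were next set against a stand-in for islet RNA, the mean log2 CPM of 14 endocrine secretory genes. That level was 5.35 ± 0.35 in libraries labelled Grg3Grg4 and 5.83 ± 0.21 in those labelled Grg3, against 6.13 ± 0.12 in controls (log2 CPM, SD, n = 3 each). Relative to it, Nkx6-1 stood at 0.67, 0.49 and 0.36 in libraries labelled Grg3Grg4 and at 0.34, 0.50 and 0.63 in those labelled Grg3, against -0.067, -0.33 and -0.55 in controls. All 6 mutant-labelled libraries lay above every control, by a mean of 0.82 for Grg3Grg4 and 0.81 for Grg3. Isl1 stood 0.69 and 0.68 above control, also with no overlap. The list itself had a lower mean in both mutant-labelled groups, so a gene of unchanged CPM would stand higher relative to it. Its 14 genes did not move alike. Against control, their log2 fold changes ran from -1.59 (Chga) to -0.05 (Cacna1a) for Grg3Grg4. For Grg3 they ran from -1.125 (Chga) to 0.20 (Pam). In CPM alone, the log2 differences of Nkx6-1 and Isl1 from control were 0.05 and -0.07 for Grg3Grg4, and 0.51 and 0.38 for Grg3. Pax6 stood 0.22 and 0.12 above control with no overlap, but nearly touched control in libraries labelled Grg3 (lowest -0.9175, highest control -0.9202). Relative Pdx1 overlapped in both comparisons (0.17 and 0.07; exact permutation test, two-sided, p = 0.3 and 0.7). Mnx1 relative to the list overlapped between Grg3Grg4-labelled libraries and control (-0.07) and was 0.60 higher in those labelled Grg3, with no overlap.

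The trunk and duct factors were set in the same way against 16 duct and epithelial genes, whose mean log2 CPM was 5.39 ± 0.29 in libraries labelled Grg3Grg4 and 5.36 ± 0.09 in those labelled Grg3, against 5.14 ± 0.02 in controls (SD, n = 3 each). Relative Onecut1 differed from control by -0.73 in libraries labelled Grg3Grg4 and by -0.58 in those labelled Grg3 (log2), and relative Sox9 by -0.47 and -0.32, in each case with no overlap. When Grg3Grg4 replicate 2 was left out, the differences in that group were -0.35 for Onecut1 and -0.17 for Sox9. Relative Hhex and Onecut2 overlapped between all groups. The duct list had a higher mean in both mutant-labelled groups, so a gene of unchanged CPM would stand lower relative to it. Of 27 such comparisons 12 did not overlap, each with an exact permutation p of 0.1, which is the smallest that 3 against 3 libraries can give, and 0.225 after Benjamini-Hochberg adjustment over the 27. The share of all genes that would not overlap relative to these lists was not computed.

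**Figure D4:**
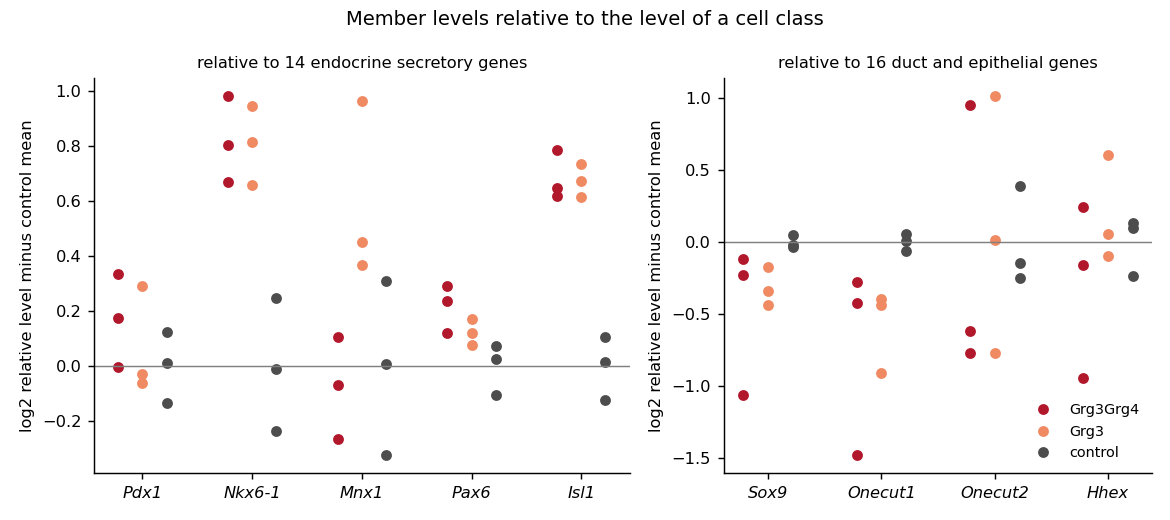
Log2 level of each factor relative to a cell class (14 endocrine secretory genes at left, 16 duct and epithelial genes at right), minus the control mean (y axis), 1 point per library. Nkx6-1, Isl1 and Pax6 lie above all controls in both mutant-labelled groups, though Pax6 nearly touches control in Grg3. Sox9 and Onecut1 lie below, and the lowest point for Sox9, Onecut1 and Hhex is Grg3Grg4 replicate 2.

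Other genes of the same network were described from lists. Of 20 further progenitor factors, 2 fell and 0 rose in libraries labelled Grg3Grg4 against control, with a median log2 fold change of -0.03. Foxa2, a forkhead activator of Pdx1, had 28.1 ± 4.39 CPM in libraries labelled Grg3Grg4 and 41.7 ± 3.70 CPM in controls (SD, n = 3 each; log2 -0.57, SE 0.13, edgeR adjusted p = 0.0488). Rbpj, the DNA-binding partner of Notch, had 20.9 ± 6.58 CPM in libraries labelled Grg3Grg4 and 44.4 ± 0.15 CPM in controls (SD, n = 3 each; log2 -1.09, SE 0.24, edgeR adjusted p = 0.0484). Among libraries labelled Grg3, edgeR called 0 of the 20, with 2 at an unadjusted p under 0.05, 2 called by DESeq2 and 1 by limma voom. Without Grg3Grg4 replicate 2, edgeR called 0 of the 20 in libraries labelled Grg3Grg4.

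Of 20 further islet factors, 2 fell and 0 rose in libraries labelled Grg3Grg4 against control, with a median of -0.23. Mafa, a late activator of insulin transcription in beta cells, had 10.6, 10.6 and 15.6 CPM in libraries labelled Grg3Grg4 and 27.2, 28.2 and 14.5 CPM in those labelled Grg3, against 28.7, 33.3 and 31.3 CPM in controls (log2 -1.35, SE 0.24, edgeR adjusted p = 0.0275 for Grg3Grg4). Pou3f4, an alpha cell factor, had 1.49 ± 0.41 CPM in libraries labelled Grg3Grg4 and 3.89 ± 0.30 CPM in controls (SD, n = 3 each; log2 -1.39, SE 0.24, edgeR adjusted p = 0.0216). Among libraries labelled Grg3, 0 of 20 passed with edgeR, 5 had an unadjusted p under 0.05, DESeq2 called 3 and limma voom called 1. The initiator of the endocrine programme Neurog3 had 32.2, 35.6 and 34.8 CPM in libraries labelled Grg3, above all controls at 15.3, 23.1 and 19.3 CPM (log2 0.83, edgeR adjusted p = 0.0917). Without Grg3Grg4 replicate 2, edgeR called 1 islet factor in libraries labelled Grg3Grg4 (Pou3f4), and Neurog3 passed in those labelled Grg3.

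Of 12 beta cell genes downstream of these factors, 5 fell in libraries labelled Grg3Grg4 and 2 in those labelled Grg3, with 0 higher and medians of -1.12 and -0.50. Ins2, which encodes insulin, had 734, 654 and 1418 CPM in libraries labelled Grg3Grg4, against 2487, 2872 and 2698 CPM in controls (log2 -1.52, SE 0.30, edgeR adjusted p = 0.0353). Glp1r, the incretin receptor, had 4.46 ± 1.65 CPM in libraries labelled Grg3Grg4 and 6.30 ± 1.61 CPM in those labelled Grg3, against 18.8 ± 2.45 CPM in controls (SD, n = 3 each; log2 -2.08 and -1.57, edgeR adjusted p = 0.00695 and 0.0252). The islet phosphatase gene G6pc2 fell in both, at log2 -1.80 and -1.48 (edgeR adjusted p = 0.0192 and 0.0422). Slc30a8, the zinc transporter of insulin granules, and Mafa fell in libraries labelled Grg3Grg4. Without Grg3Grg4 replicate 2, edgeR called 2 of the 12 (Glp1r and G6pc2) in libraries labelled Grg3Grg4. Of the 14 endocrine secretory genes used above, 3 fell (Cpe, Scg2 and Scg5) and 0 rose in libraries labelled Grg3Grg4, with a median of -0.79. Without that library, edgeR called 1 of the 14 (Cpe), and with sex as a term it called 0 genes of these progenitor, islet, beta cell and secretory lists in libraries labelled Grg3Grg4. Of the 16 duct and epithelial genes 0 passed in either comparison with edgeR, with medians of 0.07 and 0.15, 7 and 4 at an unadjusted p under 0.05, and 3 and 2 called by DESeq2.

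Of 11 paralogues of the 9 factors, 6 had enough reads to be tested and 1 rose. Nkx6-3, the Nkx6 paralogue of the stomach antrum, had 9.44, 5.29 and 8.95 CPM in libraries labelled Grg3Grg4 and 15.7, 8.21 and 13.1 CPM in those labelled Grg3, against 0.355, 0.293 and 0.198 CPM in controls. The groups were far apart, with log2 4.79 (SE 0.36, edgeR adjusted p = 0.000307) and 5.43 (SE 0.37, edgeR adjusted p = 0.000175). Of 10 tested stomach and gut genes, 1 was higher and 1 lower in libraries labelled Grg3Grg4, and 3 were higher in those labelled Grg3. The summed level of the 16 listed was 91.8 to 99.9 CPM and 109.1 to 158.9 CPM in those groups, against 143.2 to 185.3 CPM in controls. Most of the control sum was Tff2, which averaged 113.2 CPM there, 35.1 CPM in libraries labelled Grg3Grg4 and 63.2 CPM in those labelled Grg3. The median log2 fold change of the 10 tested genes was 0.69 and 1.19. Liver markers also differed between the labelled groups: 11 and 9 of 17 tested were higher, at a summed 894.7 to 2062 CPM in libraries labelled Grg3Grg4 and 261.4 to 1933 CPM in those labelled Grg3, against 145.5 to 199.8 CPM in controls. With sex as a term edgeR called 0 and 9 of these liver genes, and limma voom called 6 and 2. Smooth muscle markers summed to 289.9 to 1337 CPM and 402.4 to 1189 CPM in those groups, against 175.2 to 252.4 CPM in controls, with 0 of 10 called by edgeR in either comparison and 10 and 9 at an unadjusted p under 0.05. Without Grg3Grg4 replicate 2, edgeR called 4 smooth muscle genes in libraries labelled Grg3. The part of these tissues in the levels of the 9 factors was not tested.

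**Figure D5:**
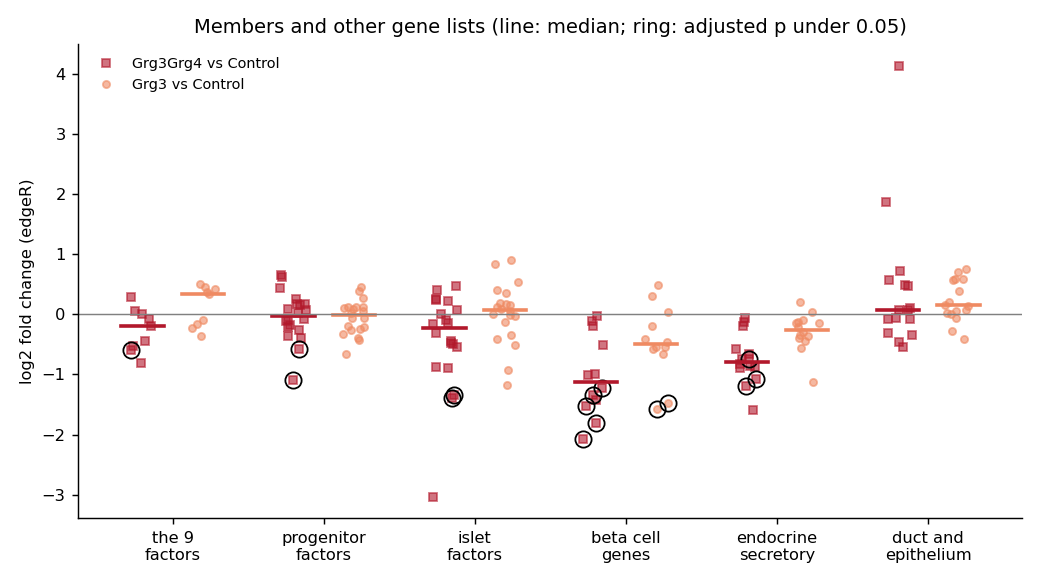
Log2 fold change against control (y axis) of the 9 factors and of 5 other gene lists, with squares for libraries labelled Grg3Grg4 and circles for those labelled Grg3. Each point is a gene, lines are medians and rings mark an adjusted p under 0.05; the lowest median is that of the beta cell genes, at -1.12 in libraries labelled Grg3Grg4.

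Across the 9 libraries, the genes whose log2 CPM followed each factor most closely were picked by Pearson r among 14737 genes averaging at least 1 CPM. The points share libraries and genotype, so r describes both. Pdx1 was followed most closely by Dnajc14 (r = 0.981), Tmem215 (0.969) and Mmd2 (0.965). Pax6 was followed by Pcsk2 (0.969), which encodes a prohormone convertase, Myt1 (0.967), a zinc finger factor of endocrine precursors, and Iapp (0.964), which encodes amylin. Mnx1 was followed by Fev (0.975), a serotonergic factor also made in endocrine precursors, Mapk3 (0.966) and Kif19a (0.955). Nkx6-1 was followed by Lox (0.981), an enzyme that crosslinks collagen, Ccnd3 (0.962), which encodes a D cyclin, and Tagln2 (0.955). Hhex was followed by Hand2 (0.975), Serping1 (0.972) and Osr1 (0.958). Isl1 was followed by Smarcd2 (0.967), Tap2 (0.949) and Cbx6 (0.945). The leading genes were 1700056E22Rik for Sox9 (0.957), Shroom1 for Onecut1 (0.958) and Dennd2c for Onecut2 (0.963).

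Among the 9 factors themselves, the pairs most alike over the 9 libraries were Nkx6-1 with Hhex (r = 0.902), Sox9 with Pax6 (0.895) and Pdx1 with Pax6 (0.894). Pdx1 with Nkx6-1, both beta cell factors, had r = 0.256, and Nkx6-1 with Onecut1 had 0.122.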

How the data were processed

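RNA was sequenced from whole pancreas of 9 mouse embryos, 3 per labelled genotype. The submitters' processing notes name HISAT2 and HTSeq, beside Trim Galore, FastQC, bedtools and DESeq2, and the build mm10/GRCm38. Their versions, the strand setting and the annotation release were not stated there. The authors deposited whole-number read counts per gene for each library, not normalized. From these counts, 5 rows that name no gene (28.53 to 33.24% of each library, mostly reads with several alignments) were left out of library sizes and tests. The 3 genotypes were fitted together in edgeR 4.0.16 (quasi-likelihood F test, TMM, filterByExpr with a minimum count of 10, 19166 genes, Benjamini-Hochberg over all of them) under R 4.3.3. The fit was checked on simulated data. Alternatives used limma 3.58.1 and DESeq2 1.42.0, other filters and scalings, sex as a term, a replicate block and leaving out each library. Replicates differed by more than sampling noise in every group (chi-square per degree of freedom 17.1 to 193). The labels call the replicates embryos and give no batch.

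The 9 factors and all gene lists were chosen with earlier results of these data known. The rule for naming genes took all 9 factors, Tle3, Tle4 and Foxa1 for context, up to 4 genes of smallest p per list, and the 3 genes of highest r per factor. For Sox9, Onecut1 and Onecut2 only the first of those 3 is given. A gene that this rule names is not reported here. Onecut2 and Mnx1 had the fewest counts of the 9 factors, 89 to 443 and 74 to 254 per library. Onecut2 also spread most between libraries, with an SD of 70.2% and 57.5% of its mean in those labelled Grg3Grg4 and Grg3. Foxa1 had 2118 counts over the 3 libraries labelled Grg3Grg4 and 2215 over those labelled Grg3, against 4 over the controls. Coordinates and exon lengths are from GENCODE M21 on GRCm38, and promoter windows from RefSeq.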

Additional observations from a re-analysis of the deposited data

How the results depend on the processing

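The negative fold change of Pdx1 in libraries labelled Grg3Grg4 against control kept its direction under all 19 alternatives (log2 -0.72 to -0.35, adjusted p 0.000262 to 0.162) and its call under 11. The same replicate numbers did not pair the libraries (correlation of deviations -0.0858 to 0.094); with the replicate block Pdx1 was -0.60 with edgeR adjusted p = 0.0546, and 0 factors were called in each comparison. The count of factors called in libraries labelled Grg3Grg4 against control, 1, became 0 with the block, with sex as a term or with plain totals, and 0 to 2 when a library was left out. In libraries labelled Grg3 against control, 0 became 1 (Nkx6-1) without the count filter (adjusted p = 0.0361), with plain totals (0.0428) or with DESeq2 (0.0144), and 0 to 1 when a library was left out. In libraries labelled Grg3Grg4 against Grg3, 0 became 2 with DESeq2, Nkx6-1 (0.0416) and Mnx1 (0.0145).

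Over all genes, the 410 calls for Grg3Grg4 against control became 930 without the filter, 254 with the replicate block, 30 with sex, 750 with the 6 libraries compared, 1750 with plain totals, 1471 with DESeq2, 1033 with limma voom, and 50 to 825 when a library was left out. The 268 calls for Grg3 against control became 586, 167 (block), 169 (sex), 647 (plain totals), 1323 (DESeq2), 421 (limma voom) and 32 to 327. The 36 calls for Grg3Grg4 against Grg3 became 228 without the filter, 75 with a filter of 1 CPM, 11 (block), 4 (sex), 10 (6 libraries), 21 (plain totals), 877 (DESeq2) and 6 to 49. Plain totals were added after seeing the data. The causes were not tested.

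Several signs turned. For Grg3Grg4 against control, the log2 fold change of Hhex (-0.0018 as reported) was 0.0023 without the filter, 0.013 with the stricter filter, 0.061 with sex, 0.0077 with 6 libraries, 0.0047 with limma voom, 0.24 with plain totals and -0.29 to 0.17 leaving out a library. With plain totals Sox9 was 0.039 and Isl1 0.17, and for Grg3 against control Sox9 was 0.10 and Pax6 0.044. With sex as a term, Onecut1 (0.016) and Onecut2 (0.057) turned for Grg3Grg4 against Grg3.

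Leaving out each library in turn gave fold changes on both sides of 0 for Nkx6-1 (-0.080 to 0.18), Onecut2 (-0.45 to 0.61) and Isl1 (-0.26 to 0.065) in Grg3Grg4 against control, for Onecut2 (-0.085 to 0.78) in Grg3 against control, and for Sox9 (-0.28 to 0.033), Onecut1 (-0.31 to 0.11) and Onecut2 (-0.90 to 0.38) in Grg3Grg4 against Grg3. Levels relative to the secretory or duct lists did so for Onecut2 (-0.69 to 0.17), Mnx1 (-0.24 to 0.082) and Hhex (-0.55 to 0.045) in Grg3Grg4 against control. They did so for Pdx1 (-0.044 to 0.13), Onecut2 (-0.38 to 0.51) and Hhex (-0.021 to 0.33) in Grg3 against control. In Grg3Grg4 against Grg3 the ranges were -0.068 to 0.087 for Nkx6-1, -0.33 to 0.14 for Sox9, -0.37 to 0.23 for Onecut1, -0.78 to 0.24 for Onecut2 and -0.042 to 0.042 for Isl1. The relative levels of Nkx6-1, Isl1, Pax6, Sox9 and Onecut1 against control kept their direction under all 8 alternatives run on them. Their libraries did not overlap with control, so leaving out a library could not have turned the sign. Only the alternatives that kept every library could have done so.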
